A study of Mus musculus with 8 samples.

Results

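The nuclei described here are cortical excitatory neurons of the mouse that carry RNA of Rmst together with RNA of Hgf, Lemd1 or Zfp804b. A nucleus was retained when 500 genes or more were detected in it and no more than 2% of its UMIs were mitochondrial, where a UMI (unique molecular identifier) stands for 1 captured RNA molecule. Members were chosen by their own counts: at least 1 UMI of Slc17a7, at most 1 of Gad1 plus Gad2, at least 1 of Rmst, at least 3 of Hgf, Lemd1 and Zfp804b together, at most 1 of Ccbe1 plus Otof, and at most 2 of the glial and vascular genes Slc1a3, Mog, Inpp5d and Flt1 together. The rule selected 2987 of 77185 kept nuclei (3.87%), or 7.10% of the 42073 nuclei that met its excitatory and non-glial conditions, from 97772 deposited barcodes. "Excitatory nuclei" means that set of 42073, and "other excitatory nuclei" those of it that are not members.

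The series profiled single nuclei of the cerebral cortex of C57BL/6J mice at postnatal day 25, 4 wild type (WT) and 4 Chd8+/- animals, in 8 libraries. Each genotype had 2 males and 2 females, taken as litter- and sex-matched pairs, with the medial cortex removed and the tissue frozen before nuclei of all 8 animals were isolated side by side. Chd8+/- animals are heterozygous for a loss of function of Chd8, a chromatin remodeller linked to autism in humans, and the design of the allele is not given in the sources used here. A pair here means a WT and a Chd8+/- animal of the same sex and replicate number. Pairs of replicate 1 were single-indexed and pairs of replicate 2 dual-indexed libraries, so replicate number and index type cannot be told apart.

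Rmst is a long noncoding RNA known from neuronal differentiation. Hgf is hepatocyte growth factor, a secreted ligand of the receptor tyrosine kinase Met, and Met signalling in the cortex is known for its part in dendrite growth and synapse maturation. Lemd1 encodes a LEM domain protein, Zfp804b a zinc finger protein, and Cpne4 a copine, a calcium-dependent membrane-binding protein. Cortical excitatory neurons are usually divided into intratelencephalic (IT) types, which project within the forebrain, and into extratelencephalic, corticothalamic and near-projecting types of the deep layers.

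Chd8 itself did not separate the genotypes in these nuclei. Its normalised level in CPM, the UMIs summed over each library's members and scaled to a fixed total, was 74.7 and 82.9 in the WT males, 77.4 and 76.3 in the WT females, 77.7 and 79.6 in the Chd8+/- males and 76.6 and 76.4 in the Chd8+/- females. The groups overlapped, at 77.8 ± 3.57 against 77.6 ± 1.44 (SD, n = 4 each). Where the counted 3' ends lie relative to the allele is not known here, so genotypes are given as labelled. The libraries held 69503598 to 98132783 UMIs, and the members' sums 3057505 to 6813081. A library that stood apart from the others in its excitatory nuclei was Chd8+/- male 2. In it, nuclei with at least 3 UMIs of Rorb, a layer 4 and 5 transcription factor, made up 9.32% of excitatory nuclei, against 20.9% to 31.5% in the other 7 libraries, and 546 of the 666 nuclei of a cluster led by Ndst4 and Ano2 came from it, as did 50 of that cluster's 53 members. Of each pair of libraries 27 to 63 barcodes had the same sequence, and 1 such barcode was a member in both libraries. Scrublet, run in each library, marked 167 members (5.59%) as doublets, against 3.71% of all excitatory nuclei.

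Most members met the rule through Zfp804b, and in most no UMI of Hgf or Lemd1 was counted. Of the 2987 members, 2727 (91.3%) had at least 3 UMIs of Zfp804b alone, and 1680 (56.2%) had no UMI of Hgf or Lemd1. Hgf was seen in 851 members (28.5%) and Lemd1 in 654 (21.9%). Cpne4, which the rule does not use, was seen in 2205 members (73.8%). As a background, nuclei with at least 2 UMIs of the oligodendrocyte gene Mog and none of Slc17a7, Gad1 or Gad2 had a UMI of Rmst in 5.77%, of Hgf in 1.31%, of Lemd1 in 0.437%, of Zfp804b in 17.8% and of Cpne4 in 8.31% of 2286 nuclei, at a median of 3450.5 UMIs per nucleus against 11363 in members. Both conditions on Rmst and on the 3 summed genes were met by 6 of those 2286 nuclei (0.262%).

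The limits of the rule passed through dense regions of the data. With Rmst at 1 UMI or more and the other conditions met, 603 nuclei lay just outside with 2 UMIs of Hgf, Lemd1 and Zfp804b together, 382 lay just inside with 3, and 2605 had 4 or more. With at least 3 UMIs of the 3 summed genes, 7186 nuclei had no UMI of Rmst, 1015 members had exactly 1 and 1972 members had 2 or more. A further 321 nuclei met every condition but that on Ccbe1 and Otof, genes of upper-layer IT neurons. Members were also the deeper nuclei: the median UMI count per member ran from 9669 to 14043 over the libraries, and that of other excitatory nuclei from 7348 to 10677.5.

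The label holds for only part of the members. When all excitatory nuclei were grouped by their expression into 35 clusters, 1096 members (36.7%) lay in a cluster of 2724 nuclei whose leading genes were Rmst, Gm31592, Hgf, Lemd1 and Scn7a, and members made up 40.2% of it. Over 5 random starts of the clustering the cluster with most members held 35.0% to 37.8% of them. Its leading genes were looked at only in the start used here. The next was a cluster led by Dnah14, Oprk1 and Galnt14, genes of deep IT neurons among them, with 470 members (15.7%). Clusters led by Rxfp2 and Deptor, by Scn7a and Whrn, and by Syt6 and Foxp2, the last of these a corticothalamic pair, held 231, 178 and 157 members. A small cluster led by Shc4, Tshz2 and Prlr had the highest share of members, 167 of its 377 nuclei (44.3%). Another 41 members lay in a cluster led by Foxp2 and Syt6 in which 82.8% of nuclei were marked as doublets, and 38 members lay in the 4 clusters with an interneuron marker among their 10 leading genes. The set of excitatory nuclei also held 11 clusters in which a glial or vascular marker list summed to at least 4 times its median over clusters. These had 3006 nuclei (7.14% of the set) and 64 members (2.14%). Among them were clusters led by Pdgfra, a gene of oligodendrocyte precursors, with 591 nuclei and no member in one and 16 members in another where 75.6% of nuclei were marked as doublets. A cluster led by the macrophage gene Mrc1 held 12 members, with 70.1% of its nuclei marked. A cluster outside those 11, of 497 nuclei and 36 members, was led by Dbi, Aldoc, Gstm1 and Mt1, genes known from astrocytes, and 29 of its members came from Chd8+/- and 7 from WT libraries, 16 of them from Chd8+/- male 1. The name Rmst and Hgf type is therefore used here for the nuclei that the rule selects, which span several clusters.

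**Figure D1:**
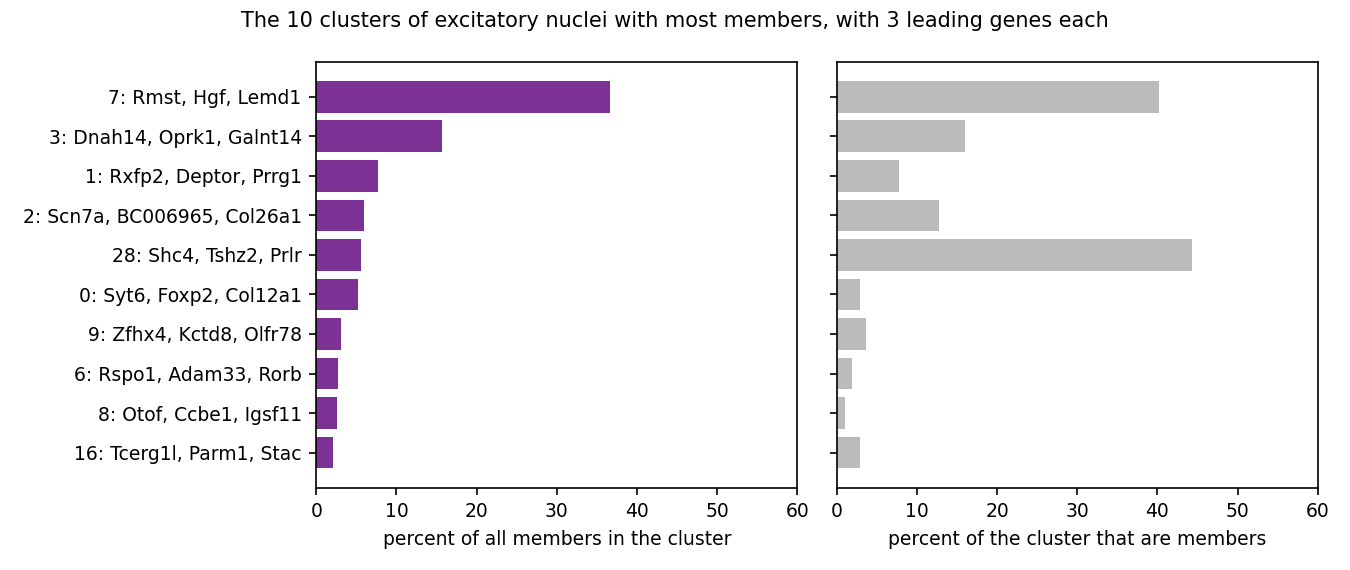
Left, percent of all 2987 members that lie in each of the 10 clusters with most members; right, percent of each cluster's nuclei that are members. Clusters are named by their number and 3 leading genes, with unnamed gene models left out. The Rmst-led cluster holds 36.7% of members, and the small Tshz2 cluster at number 28 has a like share of members among its own nuclei, 44.3%.

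The members that lay in the Rmst-led cluster had higher levels of Rmst, Hgf and Cpne4 than the rest. Rmst stood at a mean of 475 CPM in the members of that cluster, 222 CPM in members elsewhere and 180 CPM in its nuclei that were not members. Hgf stood at 79.2, 28.7 and 28.5 CPM in the same order, and Cpne4 at 640, 244 and 272 CPM. Members outside the cluster had more RNA of some genes on the lists of other types. Foxp2 was at 75.7 CPM there and at 12.1 CPM inside, and Bcl11b, a transcription factor of extratelencephalic neurons, at 45.0 against 5.56 CPM. Tshz2, on the near-projecting list, was at 400 against 54.9 CPM. It was the only gene of that list with at least 20 CPM in members or other excitatory nuclei. Tshz2 was also a leading gene of the Shc4 cluster above, so its level alone does not name a type. Clusters were made from the same counts as these levels, and the rule itself asks for Rmst and the 3 summed genes. The values therefore describe the split and test nothing. Among excitatory nuclei that met the Ccbe1 and Otof condition, 3780 had Rmst but fewer than 3 UMIs of Hgf, Lemd1 and Zfp804b together. In those Cpne4 was at 220 CPM, against 384 CPM in members, 117 CPM in the 7186 nuclei with the 3 genes and no Rmst, and 112 CPM in 23250 nuclei with neither.

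The levels that the rule fixed were as follows, in CPM of summed UMIs, with no test. Rmst, on the minus strand of chr10:92071037-92165170 (GRCm38 with GENCODE M21, as all positions here), had 257 to 357 CPM in the members of the 8 libraries and a mean of 29.5 CPM in other excitatory nuclei. Hgf, on the plus strand of chr5:16553495-16620152, had a mean of 46.0 CPM against 9.09. Lemd1, on the plus strand of chr1:132191431-132259227, had 26.4 CPM against 7.28. Zfp804b, on the minus strand of chr5:6769010-7344756, had 1339 CPM against 287. Outside the members Zfp804b stood at 251 and 279 CPM in the WT males, 216 and 235 in the WT females, 351 and 448 in the Chd8+/- males and 261 and 255 in the Chd8+/- females. The Chd8+/- males were above every WT library, and the Chd8+/- females lay within the WT range. The rule took nuclei out of this set by their counts of Zfp804b, so these values describe and test nothing.

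Cpne4, on the plus strand of chr9:104547286-105034544, is the given marker that the rule did not use. In members it had 336 and 477 CPM in the WT males, 439 and 448 in the WT females, 330 and 349 in the Chd8+/- males, and 274 and 419 in the Chd8+/- females. In other excitatory nuclei it had 91.4 and 162, 112 and 145, 110 and 177, and 105 and 134 CPM in the same order. The 2 ranges did not overlap, and the log2 ratio of members to other excitatory nuclei was 1.57 ± 0.30 (SD over 8 libraries), lowest in Chd8+/- male 2 at 0.98. The mean in Rorb nuclei was 160 CPM, in upper-layer nuclei (at least 2 UMIs of Ccbe1 plus Otof) 151 CPM and in deep IT nuclei (at least 4 UMIs of Galnt14 plus Sulf1) 97.1 CPM. In an alternative, nuclei of at least 3000 UMIs were thinned to 3000 before the rule was applied. The 16686 kept nuclei below that depth were left out. The log2 ratio was then 1.91.

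Other genes set the members apart from other excitatory nuclei in every library. Of 6244 genes with at least 20 CPM in the higher of the 2 classes, 631 (10.1%) were higher in members in all 8 libraries and 1336 (21.4%) lower, and 20 and 38 of these by at least 2-fold. Members were selected by counts of the same nuclei, and depth differs between the classes, so these counts describe and test nothing. The 15 genes of highest ratio beside the rule genes included ion channel and adhesion genes. Scn7a, a sodium channel family member, ran from 14.1 to 30.1 CPM over the libraries against 2.66 to 5.72. Kcnab1, a potassium channel beta subunit, stood at 371 ± 45.7 against 167 ± 40.3 (SD, n = 8 each), and Cntn5, a contactin adhesion protein, at 2277 ± 168 against 1098 ± 130. Receptor genes were among them too, with Ror1, a Wnt receptor kinase, at 28.2 against 7.04 CPM, Gfra2, the neurturin receptor, at 107 against 53.0, and the kinase Grk5 at 77.4 against 38.2. The secreted matrix protein gene Adamtsl1 had 98.5 against 35.5 CPM and the gene model Gm11639 had 44.3 against 9.53. Cpne4, Tnnc1, Dnah14, Nek10, Lcorl and Met were also among the 15. Dnah14 was the exception in where it came from, with 25.5 CPM in members of the Rmst-led cluster and 43.2 CPM in members elsewhere.

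**Figure D2:**
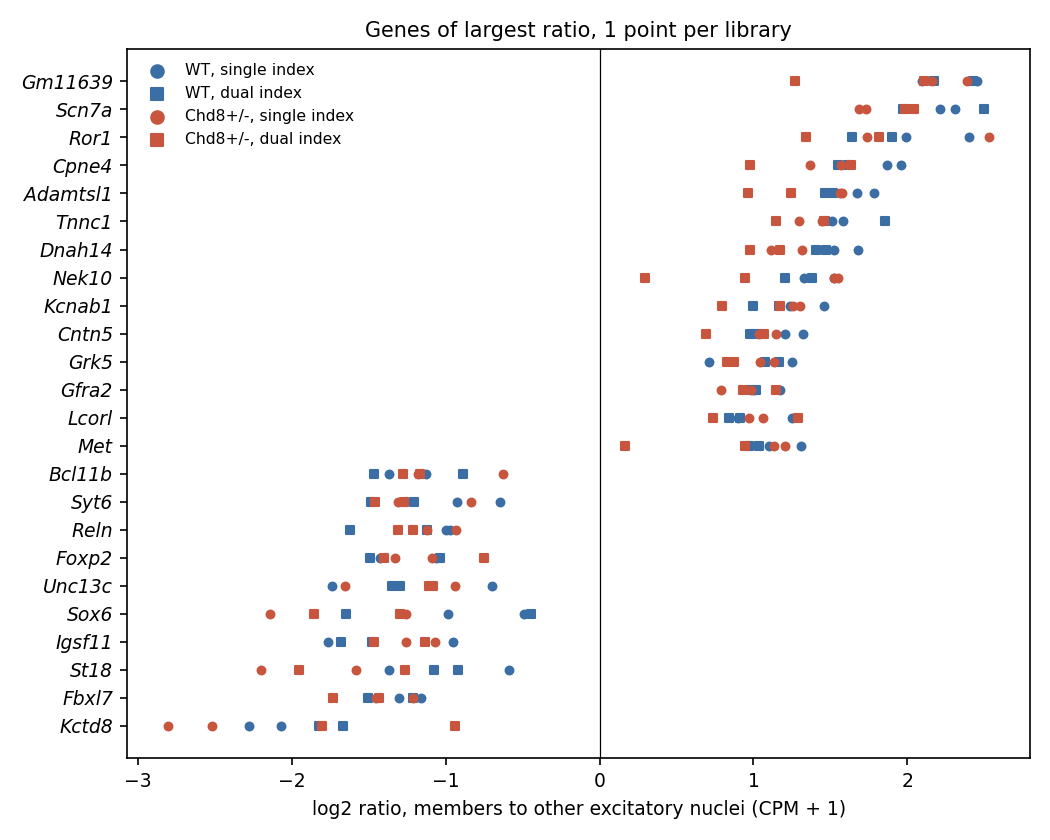
Log2 ratio of members to other excitatory nuclei (CPM + 1) for 14 of the 15 genes of highest and the 10 of lowest mean ratio among those with the same direction in all libraries; 1 point per library, coloured by genotype, with the shape giving the index type. Rule genes are left out. Gm11639 and Scn7a have mean ratios of 2.13 and 2.05, Kctd8 one of -1.99, and the lowest points of Gm11639, Cpne4, Nek10 and Met are those of Chd8+/- male 2.

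The 10 genes of lowest ratio were led by Kctd8, an auxiliary subunit of GABA-B receptors, at 27.1 ± 6.34 CPM in members against 116 ± 45.7 in other excitatory nuclei. Of the 10, 3 mark corticothalamic or extratelencephalic neurons: Foxp2 had 53.4 against 124 CPM, Syt6 8.81 against 21.1 and Bcl11b 31.5 against 70.0. Reln, an extracellular glycoprotein gene, had 15.4 against 36.0 CPM, Igsf11 11.8 against 31.6 and Sox6 14.5 against 34.4. Fbxl7, St18 and Unc13c made up the rest. Sox6 and St18 are also among the leading genes of glial or interneuron-led clusters in the excitatory set. Of the markers of other cell types with enough counts, all 3 oligodendrocyte genes (median log2 ratio -0.49), 1 of 2 interneuron genes and 1 of 2 microglia genes were lower in members in all 8 libraries, beside 21.4% of all genes. The astrocyte gene Slc1a2 was not, at a ratio of 0.03. The part of such nuclei in the low genes was not tested. Foxp2, Syt6 and Bcl11b were lower still in the members of the Rmst-led cluster, at 12.1, 1.68 and 5.56 CPM. Thinning moved the log2 ratios but kept their sign. That of Foxp2 went from -1.20 to -1.99, of Syt6 from -1.14 to -2.66 and of Bcl11b from -1.14 to -1.92. Sox6 went from -1.27 to -2.48, and Igsf11 the other way, from -1.35 to -0.93.

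Marker lists of corticothalamic and extratelencephalic neurons were lower in members, and those of IT types were mixed. For each list the count covers genes with at least 20 CPM in either class, rule genes left out, beside a median log2 ratio of -0.06 over all 6244 genes. All 4 corticothalamic genes (median -0.99) and all 3 extratelencephalic genes (median -1.04) were lower in members in all 8 libraries. Of 5 upper-layer IT genes 4 were lower (median -0.59), among them Calb1 at 20.1 against 43.9 CPM and Cux2 at 123 against 157. Of 5 layer 4 and 5 IT genes 3 were higher and 1 lower (median 0.37), with Kcnh5, a potassium channel, at 405 against 282 CPM and Cux1 at 148 against 263. Of 3 layer 5 IT genes 2 were higher, Il1rapl2, a synaptic adhesion protein, at 942 against 535 CPM and Deptor, an mTOR inhibitor, at 36.8 against 31.4. Of 3 deep IT genes 1 was lower and none higher (median -0.27). The near-projecting list had 1 gene with enough counts, Tshz2, with a log2 ratio of 0.34 and no common direction over the 8 libraries, and neither of the 2 Car3 and claustrum genes had one (median 0.05). Rorb itself did not move one way, at 430 ± 177 against 410 ± 180 CPM, and was higher in members in 5 of 8 libraries. Of 7 general excitatory genes 3 were higher and 2 lower, with Neurod6 at 23.7 against 17.3 CPM, Neurod2 at 18.8 against 24.7 and Camk2a at 783 against 826.

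**Figure D3:**
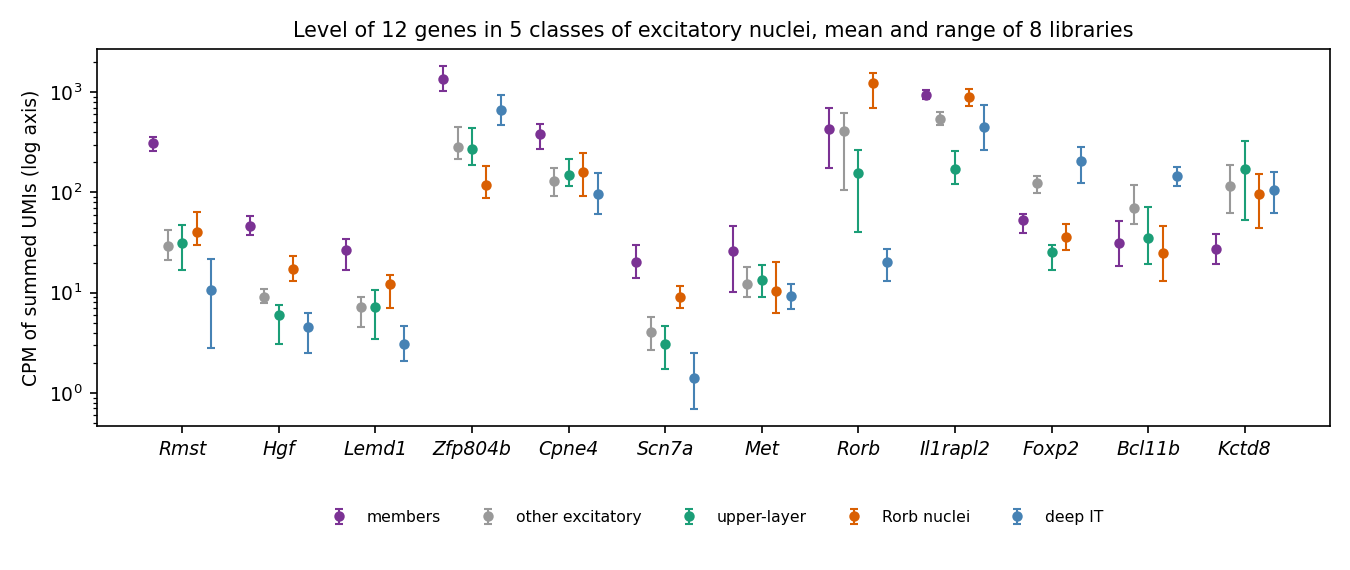
Level of 12 genes in members, other excitatory nuclei, upper-layer, Rorb and deep IT nuclei, as CPM of summed UMIs on a log axis; points are means and bars the lowest and highest of 8 libraries. Rmst, Hgf, Lemd1, Zfp804b, Rorb and the upper-layer and deep IT genes chose nuclei, so their levels follow from the rules. Cpne4 and Scn7a are highest in members, and Kctd8 is lowest in them.

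Genes of the ligand and receptor system that Hgf belongs to were followed from a list of 20. Met, the receptor of Hgf, had 28.1 and 21.5 CPM in the members of the WT males, 45.8 and 24.6 in the WT females, 23.4 and 10.3 in the Chd8+/- males and 30.7 and 25.1 in the Chd8+/- females. In other excitatory nuclei it had 9.06 to 17.9 CPM, and members were higher in all 8 libraries, by a log2 ratio of 0.98 ± 0.35 (SD, n = 8) that was 0.16 in Chd8+/- male 2. After thinning the mean log2 ratio of Met was 0.40. Of the 10 genes of the list with enough counts, Hgf left out, Met was the only one higher in all 8 libraries, a share like the 10.1% of all 6244 genes. The adaptor Grb2 (44.4 against 49.8 CPM), the phosphatase Ptpn11 (40.7 against 45.2) and the exchange factor Rapgef1 (86.0 against 93.5) were lower in all 8, beside 21.4% of all genes. The docking protein Gab1 was below the level set for the list, at 3.83 against 8.74 CPM.

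Among the 9 copines, 7 had enough counts, 4 were higher in members in all 8 libraries and none was lower, beside 10.1% and 21.4% of all genes. Beside Cpne4 these were Cpne5 (55.9 against 37.1 CPM), Cpne7 (26.3 against 17.9) and Cpne9 (66.1 against 54.4). Cpne7 alone of the 4 was higher in members outside the Rmst-led cluster (31.1 CPM) than in those inside it (16.5 CPM).

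Receptor and channel genes differed in both directions. Their counts stand beside 10.1% of all 6244 genes higher and 21.4% lower in members in all 8 libraries. Where they lie near those shares, as for the lower potassium channel genes, they say nothing about the list. Of 15 ionotropic glutamate receptor genes 2 were higher in members in all libraries, among them Gria4, an AMPA receptor subunit, at 1648 against 1019 CPM, and 6 were lower, among them Gria3 (796 against 1102) and the kainate receptor gene Grik1 (52.6 against 87.5). Of 5 metabotropic glutamate receptor genes 4 were higher, led by Grm3 at 662 against 448 CPM. Of 21 voltage-gated potassium channel genes 6 were higher and 4 lower, with Kcnt1, a sodium-activated channel, at 59.7 against 95.9 CPM. Of 17 HCN, sodium and calcium channel genes 5 were higher and 4 lower, with Cacna1g, a T-type calcium channel, at 60.6 against 41.9 CPM. Among 11 monoamine and acetylcholine receptor genes Adra1b (37.4 against 19.8 CPM), Htr2a (75.1 against 47.0) and Htr7 were higher, and the muscarinic receptors Chrm2 (54.3 against 80.1) and Chrm3 were lower. Of 15 GABA and glycine receptor genes 3 were higher and 1 lower.

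Adhesion and guidance genes also differed in both directions, beside the same shares of all genes. Of 31 synaptic adhesion genes 13 were higher in members in all 8 libraries and 7 lower, with Cntn5, Il1rapl2 and Tenm1 (637 against 391 CPM) the highest. Of 20 cadherins and protocadherins 5 were higher and 7 lower, with Pcdh15 at 2091 against 1191 CPM and Cdh8 at 606 against 376 on one side and Cdh7 at 34.7 against 53.8 on the other. Of 29 axon guidance genes 8 were higher and 6 lower. Ntng1, a netrin-G adhesion protein, had 307 against 169 CPM, Slit2, a guidance ligand, 339 against 211, and Sema5a 24.2 against 48.1. Of 16 layer transcription factors 6 were higher and 5 lower, with Lmo4 at 201 against 139 CPM. Of 42 autism-associated genes 9 were higher and 4 lower. Of 8 remodellers of the CHD family Chd2 was higher and Chd4 lower, which is close to the shares of all genes. Of 35 oxidative phosphorylation genes 16 were lower and none higher (median -0.19), and of 24 ribosomal protein genes 7 were lower and none higher (median -0.22). Of 3 immediate early genes Nr4a1 was higher.

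The share of members among excitatory nuclei was the first comparison of the genotypes. It was 4.89% and 6.93% in the WT males, 5.02% and 7.87% in the WT females, 6.79% and 10.5% in the Chd8+/- males, and 5.82% and 9.53% in the Chd8+/- females. The Chd8+/- animal of each pair had the higher share in 4 of 4 pairs, but the groups overlapped, and every dual-indexed library was above every single-indexed one. The means were 6.18% ± 1.46 in WT and 8.16% ± 2.21 in Chd8+/- animals (SD, n = 4 each), a difference of 1.98 percentage points (exact permutation p = 0.229, two-sided; adjusted over 3 measures 0.686). Taken over the pairs the same difference gave an exact sign-flip permutation p = 0.125, the smallest that 4 pairs can give. Exact binomial 95% intervals, which cover counting error only, were narrow beside this spread, from 4.32% to 5.52% in WT male 1 and from 9.67% to 11.3% in Chd8+/- male 2. Without Chd8+/- male 2 the difference was 1.20 percentage points (exact permutation p = 0.457). A share of nuclei cannot tell more cells of a type from more RNA per nucleus that brings nuclei over the limits of the rule.

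Index type gave a larger difference than genotype. Dual-indexed libraries had 8.70% ± 1.60 members and single-indexed ones 5.63% ± 0.876 (SD, n = 4 each; exact permutation p = 0.0286, the smallest that 4 against 4 can give; adjusted over 3 measures 0.0429). Within single-indexed libraries the mean of Chd8+/- minus that of WT was 1.35 percentage points, and within dual-indexed ones 2.61. Median UMIs per member had a mean of 12256 in dual-indexed and 10249 in single-indexed libraries. The libraries overlapped, and the test did not pass (exact permutation p = 0.0571). By genotype the means were 11342 in WT and 11164 in Chd8+/- animals (exact permutation p = 0.886). Median genes per member were 3516 and 3512 in the genotypes (exact permutation p = 1), and 3359 and 3668.5 by index type (exact permutation p = 0.0286; adjusted over 3 measures 0.0429). Thinning to 3000 UMIs left out nuclei below that depth and left 54 to 118 members per library. The share was then 2.37% ± 0.464 in WT and 3.07% ± 0.385 in Chd8+/- animals (exact permutation p = 0.0857), with 4 of 4 pairs higher. The index types differed by 0.474 percentage points (exact permutation p = 0.257). Before thinning, other classes of excitatory nuclei, which have UMI limits too, also differed by index type. Rorb nuclei were 28.4% of excitatory nuclei in single- and 18.2% in dual-indexed libraries. Upper-layer nuclei were 9.23% and 14.3%, and deep IT nuclei 4.25% and 9.32%, in the same order. The part of this make-up in the share of members was not tested.

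The genotype difference in share was also taken over other sets of nuclei. Under the rule as given the Chd8+/- mean was 1.32 times that of WT. With Zfp804b left out of the rule and at least 1 UMI of Hgf plus Lemd1 asked for, the share was 4.31% ± 1.11 in WT and 5.17% ± 1.88 in Chd8+/- animals, 1.20 times that of WT and higher in 3 of 4 pairs (exact permutation p = 0.429). The within-index differences were then 0.0314 and 1.70 percentage points. Members inside the Rmst-led cluster made up 2.37% ± 0.445 of excitatory nuclei in WT and 2.88% ± 0.510 in Chd8+/- animals, 1.21 times that of WT (exact permutation p = 0.171). By pair, from WT to Chd8+/-, it was 1.79% and 2.63%, 2.61% and 3.14% in males and 2.28% and 2.30%, 2.82% and 3.43% in females, higher in 4 of 4. Without the glial, vascular and interneuron-led clusters the share of members was 6.61% ± 1.62 and 8.95% ± 2.48, higher in 4 of 4 pairs (exact permutation p = 0.171). The Ndst4-led cluster held 52 Chd8+/- members and 1 WT member, and the Aldoc cluster 29 and 7. Without these clusters the share was 6.22% ± 1.48 and 8.17% ± 2.27, higher in 4 of 4 pairs (exact permutation p = 0.229). All nuclei of the Rmst-led cluster, members or not, made up 6.55% ± 0.716 in WT and 6.43% ± 0.598 in Chd8+/- animals, with the Chd8+/- animal higher in 2 of 4 pairs. The part of the Zfp804b level of other excitatory nuclei, given above by library, in the share of members was not tested.

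**Figure D4:**
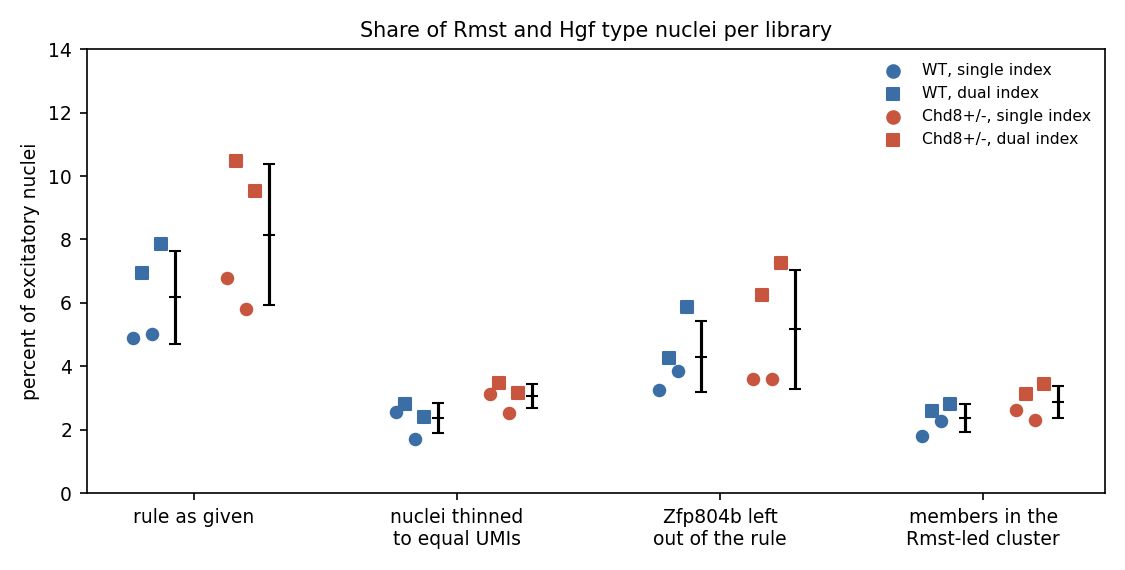
Percent of excitatory nuclei per library that are members, under the rule as given and in other ways. These are after thinning nuclei of at least 3000 UMIs to 3000, with Zfp804b left out of the rule, and for members in the Rmst-led cluster. Points are libraries, and bars mean and SD of 4. Under the rule as given, dual-indexed libraries (squares) sit between 6.93% and 10.5% and single-indexed ones (circles) between 4.89% and 6.79%.

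Gene levels in members were then compared between the genotypes, on the UMIs summed over the members of each library. No gene of 13134 tested passed an adjusted p of 0.05 (edgeR quasi-likelihood test with sex as a term, Benjamini-Hochberg adjustment; percent called 0), 244 (1.86%) fell under 0.05 before adjustment, and for 238 (1.81%) the 4 WT and 4 Chd8+/- libraries did not overlap. Because the animals came as litter- and sex-matched pairs, the same test was run with a term for each pair. The labels give sex and replicate number but no litter, so whether same-numbered animals were littermates is not known from them. The pair term also takes up index type. With it 2 genes passed (0.0152%), 5330434G04Rik and Maml3, both lower in Chd8+/- animals, and 774 (5.89%) had an unadjusted p under 0.05. Without Chd8+/- male 2, and without each other library in turn, the count without pairs was also 0. DESeq2 called 1 gene without pairs (0.00761%), which was 5330434G04Rik. The sums of the genotypes draw unequally on some clusters, such as the Ndst4-led and Aldoc clusters above. In bulk sums of nuclei, fewer nuclei with a transcript and less of it per nucleus cannot be told apart.

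5330434G04Rik is a long noncoding RNA on the minus strand of chrX:105348282-105391776, within which the microRNA gene Mir325 lies. It was the gene of smallest p in the test without pairs. Its normalised CPM in members was 138 and 133 in the WT males, 150 and 126 in the WT females, 85.0 and 88.4 in the Chd8+/- males and 91.2 and 80.5 in the Chd8+/- females. All 4 Chd8+/- libraries were below all 4 WT libraries. The means of 137 ± 10.3 and 86.3 ± 4.60 (SD, n = 4 each) gave a log2 change of -0.67 (SE 0.10), with an edgeR adjusted p of 0.502 without and 0.00770 with the pair term. Other excitatory nuclei had a log2 change of -0.62 for the same gene, and the class by genotype test described further on gave a difference of -0.04 (edgeR adjusted p = 1).

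Maml3, a Mastermind-like coactivator of Notch signalling on the minus strand of chr3:51685907-52105076, was high in dual-indexed and low in single-indexed libraries. It had 121 and 385 CPM in the WT males, 176 and 416 in the WT females, 74.4 and 185 in the Chd8+/- males and 107 and 259 in the Chd8+/- females. The groups overlapped, and the Chd8+/- animal was lower in each of the 4 pairs. The log2 change was -0.83 (SE 0.44, edgeR adjusted p = 1) without and -0.80 (SE 0.08, edgeR adjusted p = 0.00375) with the pair term. Without WT male 2 the change without pairs was -0.39. DESeq2 with the pair term called these genes and also Pde10a, a phosphodiesterase gene (log2 change -0.47), and Tox, an HMG box factor (0.43). Pde10a had 904 and 1964 CPM in the WT males, 766 and 2052 in the WT females, 657 and 1729 in the Chd8+/- males and 563 and 1195 in the Chd8+/- females. It too was higher in dual-indexed libraries and lower in the Chd8+/- animal of each pair. Its change without pairs ran from -0.08 without WT female 2 to -0.86 without Chd8+/- male 2, and was -0.27, -0.29 and -0.26 without WT male 2, Chd8+/- male 1 and Chd8+/- female 1. Tox was at 251 ± 57.2 CPM in WT and 342 ± 88.1 in Chd8+/- animals and higher in 4 of 4 pairs. Gm11802, which overlaps Tox on the opposite strand, was at 9.51 ± 3.18 and 17.6 ± 3.20 CPM, and whether the counting used strand is not given in the sources used here.

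Next by p in the test without pairs came Egfem1, an EGF-like and extracellular matrix domain gene, and Sema6d, a transmembrane semaphorin. Egfem1 had 440, 416, 342 and 390 CPM in the WT libraries (males, then females) and 514, 550, 515 and 486 in the Chd8+/- libraries, with no overlap. Its log2 change was 0.38 (SE 0.08, edgeR adjusted p = 1 without and 0.121 with the pair term). Sema6d had 272, 226, 236 and 241 CPM in the WT and 306, 325, 346 and 326 in the Chd8+/- libraries, again with no overlap, and a log2 change of 0.42 (SE 0.09; the same adjusted p values). Neither passed the test. The other 7 genes of smallest p had means of at most 43.3 CPM and an edgeR adjusted p of 1, among them Dnah14 (43.3 ± 7.07 against 30.8 ± 2.73 CPM), the matrix glycoprotein gene Tnc (6.26 against 2.73) and the co-receptor gene Tgfbr3 (11.0 against 17.0).

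**Figure D5:**
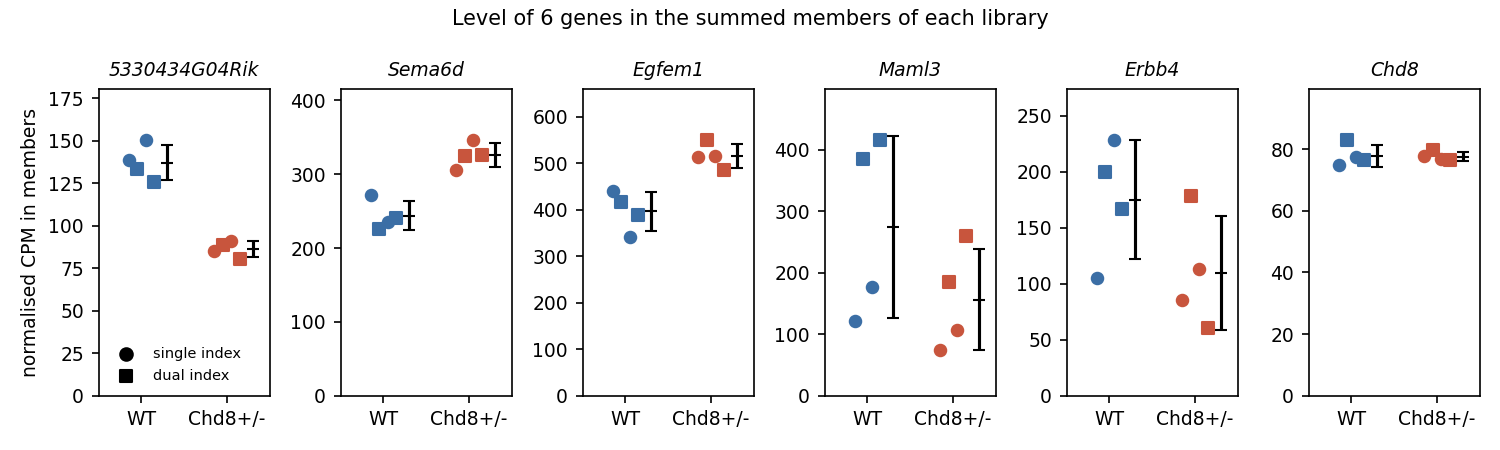
Normalised CPM of 6 genes in the summed members of each library by genotype; circles are single-indexed and squares dual-indexed libraries, and bars give mean and SD of 4, with each axis starting at 0. 5330434G04Rik, Sema6d and Egfem1 do not overlap between the genotypes, Maml3 follows the index type within each genotype, and Chd8 lies between 74.7 and 82.9 in all 8 libraries.

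The marker genes themselves had no call. Cpne4 was at 431 ± 62.4 CPM in the members of WT and 342 ± 65.2 in those of Chd8+/- animals, a log2 change of -0.33 (SE 0.15, edgeR adjusted p = 1) with the Chd8+/- animal lower in 4 of 4 pairs. The change was -0.20 without Chd8+/- female 1 and -0.18 after thinning. In other excitatory nuclei the log2 change of Cpne4 was 0.00. The Rmst-led cluster, whose members had more Cpne4, held 38.9% ± 4.43 of members in WT and 36.0% ± 4.30 in Chd8+/- animals (SD, n = 4 each). That part was higher in the Chd8+/- animal in 2 of 4 pairs, and its role in the Cpne4 change was not tested. Met was at 30.5 ± 10.9 and 22.3 ± 8.55 CPM (log2 change -0.47, edgeR adjusted p = 1; -0.25 without Chd8+/- male 2 and -0.29 without WT female 1), and Scn7a at 24.0 ± 4.44 and 16.4 ± 2.82 CPM (log2 change -0.54, edgeR adjusted p = 1). Rmst, Hgf, Lemd1 and Zfp804b chose the nuclei, and their levels in members are not compared between the genotypes.

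None of the 18 gene lists followed held a gene called in the comparison without pairs, where all 13134 genes had a median log2 change of 0.00 and 50.6% were higher in Chd8+/- animals. At an unadjusted edgeR p under 0.05, 147 of all genes were higher and 97 lower, together 1.86%. List counts at that level stand beside this share, and those near it say nothing about the list. Of 14 HGF and Met genes tested 9 were higher and 5 lower (median 0.08), and of 8 copines 3 were higher and 5 lower (median -0.01). Among 32 axon guidance genes Sema6d and Epha6 (653 against 805 CPM) were higher and Sema3e, Epha3 and Efna5 (683 against 588 CPM) lower at an unadjusted p under 0.05 (list median -0.04). Glra2 (7.90 against 13.5 CPM) and Glra3 (17.0 against 24.8 CPM), both glycine receptor subunits, were higher at that level among 17 GABA and glycine receptor genes (median -0.00). Among 21 cadherins and protocadherins Cdh20 and Pcdh17 (78.9 against 109 CPM) were higher and Pcdh9 lower. Among 46 autism-associated genes Dscam, a cell adhesion gene, was lower (931 against 782 CPM), and of 22 layer transcription factors Tox was higher. Of 80 ribosomal protein genes 70 were higher in Chd8+/- animals (median 0.21), 1 of them, Rps29, at an unadjusted p under 0.05, and of 85 oxidative phosphorylation genes 64 were higher (median 0.13), 2 at that level. In plain CPM 75 of the 80 ribosomal protein genes had the higher mean in Chd8+/- members, and 71 without the Aldoc cluster. Their summed level was 1388, 766, 1124 and 1000.04 CPM in the WT libraries (males, then females) and 1995, 1053, 1303 and 845 CPM in the Chd8+/- libraries, higher in 3 of 4 pairs. The median mitochondrial share of UMIs per member was 0.106% ± 0.0465 in WT and 0.130% ± 0.050 in Chd8+/- animals (SD, n = 4 each), also higher in 3 of 4 pairs, and its part in the list was not tested. Lists of ionotropic and metabotropic glutamate receptors, potassium channels, HCN, sodium and calcium channels, synaptic adhesion, monoamine receptors, immediate early genes and CHD remodellers held no gene with an unadjusted p under 0.05 in the test without pairs. A last list held 8 genes taken from earlier results of these data, and of these 5330434G04Rik, Glra3 and Usp11 (28.8 against 21.6 CPM) were at that level. This list was chosen by calls in the same data, so its count is no independent result.

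With the pair term more list genes had an unadjusted p under 0.05, as did more of all genes, 366 higher and 408 lower of 13134. Of the ionotropic glutamate receptor genes 2 were then higher and 2 lower at that level, of the potassium channel genes 3 lower, of the HCN, sodium and calcium channel genes 1 higher and 3 lower, and of the synaptic adhesion genes 1 higher and 2 lower. Axon guidance genes had 4 higher and 6 lower, cadherins and protocadherins 4 and 1, and GABA and glycine receptors 2 and 1. Of the autism-associated genes 4 were lower, of the immediate early genes 2 lower, and of the monoamine and acetylcholine receptor genes 1 higher. The HGF and Met list and the copines had 1 higher and 1 lower each, and layer transcription factors 2 and 1. Ribosomal protein genes had 11 higher and none lower, and oxidative phosphorylation genes 4 higher and 1 lower. The metabotropic receptors and CHD remodellers had none. No gene of these lists passed the adjusted test. The list of 8 genes taken from earlier results held both genes that did, with 1 higher and 5 lower before adjustment. Those genes were called earlier in other parts of these data, so finding them again is no independent result.

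Whether genotype acted differently in members and in other excitatory nuclei was tested on both sums of every library. Of 18792 genes 1 passed (0.00532%), Erbb4, the neuregulin receptor gene on the minus strand of chr1:68032186-69108059, with a log2 difference of -0.79 (SE 0.13, edgeR adjusted p = 0.0308). In members it had 105 and 200 CPM in the WT males, 228 and 167 in the WT females, 85.0 and 178 in the Chd8+/- males and 113 and 60.4 in the Chd8+/- females. The groups overlapped, and the Chd8+/- animal was lower in 4 of 4 pairs. In other excitatory nuclei the genotype change of Erbb4 was 0.08 on the log2 scale. Erbb4 is in cortex a gene chiefly of interneurons. Of the members, 25 WT members (1.97%) and 13 Chd8+/- ones (0.757%) lay in clusters with an interneuron marker among their leading genes, 10 of them in WT female 1. Without these clusters Erbb4 had 86.8 ± 4.01 CPM in WT and 85.7 ± 42.8 in Chd8+/- members, and the log2 difference was -0.26 (edgeR adjusted p = 1, no gene called). With predicted doublets left out it was -0.53 (edgeR adjusted p = 1). Adarb2, an interneuron marker, was at 66.4 ± 39.1 CPM over all WT and 64.4 ± 65.8 over all Chd8+/- members. Sox6, a transcription factor gene of interneurons and glia, was at 18.1 ± 4.36 and 10.9 ± 4.16 CPM, and at 11.7 ± 4.59 and 8.99 ± 3.65 CPM without these clusters. The removal of clusters was chosen after the data were seen, and the part of these nuclei in the call was not tested. All 9 interneuron markers had UMIs in members, and their summed level was 80.4 to 182 CPM in WT and 83.1 to 232 CPM in Chd8+/- libraries. The call was also lost without WT male 2, WT female 1, Chd8+/- male 1 or Chd8+/- female 2, where the difference was -0.64, -0.78, -0.69 and -0.70.

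The summed markers of other cell types overlapped between the genotypes in members. The 5 astrocyte markers summed to 467 to 570 CPM in WT and 461 to 628 in Chd8+/- libraries, the 5 oligodendrocyte markers to 119 to 212 and 110 to 272, and the 5 microglia markers to 80.8 to 88.8 and 79.9 to 93.3. The 7 markers of striatal projection neurons, 6 of them with a UMI in members, summed to 17.3 to 27.4 and 18.4 to 22.9 CPM. Vascular and oligodendrocyte precursor markers summed to at most 19.4 CPM in any library, and 5 of the 8 vascular markers had no UMI in the members of at least 1 library.

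Sex gave 6 calls in members (0.0457% of 13134 genes, edgeR). Xist and Tsix, the antisense pair of the X inactivation centre, were higher in females, with Xist at 3893 to 5628 UMIs in the female and 0 to 5 in the male sums. Uty, Kdm5d, Eif2s3y and Ddx3y, genes of the Y chromosome, were higher in males. Reads of Xist and Tsix cannot be told apart without strand. After these, Jpx was at 83.6 ± 3.74 CPM in females and 58.1 ± 5.29 in males (edgeR adjusted p = 0.611) and Cdh9, a cadherin, at 131 ± 15.5 and 72.0 ± 17.0 (edgeR adjusted p = 0.855). Every library matched the sex of its label in these genes. By index type 1975 genes (15%) were called in members, and no such gene is described here because index type goes with the replicate number of the pairs as well.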

How the data were processed

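The deposited values are UMI counts per gene and barcode, whole numbers made by the authors from polyA RNA of single nuclei (10x Genomics 3' kit, v3 chemistry, per the labels' protocols). The submitters' processing notes name STAR 2.7.9a, STARsolo, Cell Ranger and mm10. Whether intronic reads and strand were used in counting is not given in the sources used here. Members and gene lists were chosen with earlier results of these data known.

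From the deposited counts, members were selected, their UMIs summed per library, and genotype tested with edgeR 4.0.16 (quasi-likelihood, filterByExpr with a minimum count of 10, TMM, Benjamini-Hochberg). Normalised CPM use TMM, and plain CPM the summed UMIs alone. Clusters came from the Leiden method of igraph 0.11.9 on library-centred log values, and doublets from Scrublet in scanpy 1.11.5. Alternatives were DESeq2 1.42.0, a pair term, other filters and thresholds, thinning, doublets left out and each library left out. The edgeR step was run on simulated counts with known changes, the same dispersion for every gene and no index or pair effect. The real sums differ in this, so no error rate is drawn from that run. Each library is 1 mouse, so p-values measure the spread between these animals.

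Same-numbered libraries of one sex deviated together, with r of 0.293 to 0.553 over the 4 pairs. Those of the same number and other sex had r of 0.086 to 0.266, and those of other number -0.545 to 0.016. Replicate number goes with index type, so these values cannot tell litter from sex and index type. Genes named were the markers and rule genes, the 15 highest and 10 lowest ratios (at least 20 CPM, pseudocount 1 CPM, same direction in all libraries), genes called or of smallest p, and the extremes and nominal genes of each list. Further list genes were named after their values were seen. A few genes of the lists are counted but not reported here by name.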

Additional observations from a re-analysis of the deposited data

Results flagged for a closer look

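Erbb4, the neuregulin receptor gene, was the single gene whose genotype change differed between members and other excitatory nuclei by a test of the difference itself, with a log2 difference of -0.79 (edgeR adjusted p = 0.0308). The difference was -0.26 without the 38 members in clusters that have an interneuron marker among their leading genes, and -0.53 without predicted doublets, both with an edgeR adjusted p of 1. No library lay far from the other 3 by the gap rule used in the 48 groups of 4 libraries that were looked at.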

How the results depend on the processing

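The count of genes called by genotype was 0 in the test as reported and 2 with the replicate block (a term for each pair), 2 with index type added, 1 with DESeq2, 4 with DESeq2 and the replicate block and 12 without a count filter. It was 0 without each library in turn and 0 after every other setting tried, the removal of interneuron-led clusters included. The genes called with the pair term are named above. The count of genes with a different genotype change in members and other excitatory nuclei was 1, and was 27 without a count filter, 0 with doublets left out, 0 with interneuron-led clusters removed and 0 to 1 without each library in turn. The cause of the higher counts without a filter was not tested. The share of members by genotype kept its direction under all 19 settings, from 0.502 to 2.76 percentage points, with exact permutation p from 0.0857 to 0.457. The lowest was for members of the Rmst-led cluster only, where the WT share was 2.37%, against 6.18% under the rule as given. All nuclei of that cluster, members or not, are not among the 19 settings and differed by -0.112 percentage points. By index type the difference in share was 2.48 to 3.66 percentage points without each library in turn, where the exact permutation p of 0.0571 is the smallest that 3 against 4 can give, and 0.474 after thinning. The difference in median UMIs per member by genotype ran from -1138 to 320 and that in genes per member from -128 to 65.9 without each library in turn, so neither kept its sign. The change of Erbb4 in members was 0.84 after thinning, against -0.70 as reported, -0.44 without Chd8+/- female 2, -1.06 without Chd8+/- male 2, -0.41 with doublets left out and -0.08 with interneuron-led clusters removed. That of Chd8 lay near 0 and turned to 0.00336 without a count filter, 0.00142 with the stricter nucleus filter, 0.00878 with at least 2 UMIs and 0.00725 with interneuron-led clusters removed, and without each library in turn it ran from -0.033 to 0.0261, the latter without WT male 2. Sex gave 6 calls without each library in turn and 8 with DESeq2. Hgf and Lemd1 had few UMIs per nucleus, with none of either in 56.2% of members, and whether depth or the type of nucleus accounts for this was not tested.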
